A study of Mus musculus with 2 samples.

Results

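Cytosolic ribosomal proteins are the protein subunits of the ribosomes that translate nuclear-encoded mRNA. Their genes were taken from the named probe sets of the array by symbol alone: Rpl or Rps followed by a number, or Rplp for the stalk proteins, leaving out kinases named Rps6k and symbols with the pseudogene suffix -ps. This gave 20 of the 15644 named genes, 12 of the large subunit and 8 of the small subunit. RefSeq (GRCm38.p6) lists 83 protein-coding genes whose symbols follow the same pattern, and 19 of these are among the 20. The remaining member, Rps4l, is annotated there as a transcribed pseudogene. The other 64 protein-coding genes, the stalk proteins among them, have no named probe set in the values used here and so were not analysed.

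The cells were primary hepatocytes, liver parenchymal cells kept in culture, of a male C57BL/6 mouse aged 9 weeks. After 24 h in culture they were given 10 µmol/l pregnenolone 16α-carbonitrile (PCN), a steroid that activates the rodent pregnane X receptor, or only its solvent, dimethyl sulfoxide (DMSO), for 12 h. Each group was 1 Affymetrix array, hybridised with RNA pooled from 3 samples, so every value below is that of a single array and no difference has a replicate error or a test. "Higher" and "lower" describe the PCN array against the DMSO array.

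A ribosome has a small subunit, which holds the mRNA and reads codons, and a large subunit, which forms the peptide bond and holds the tunnel through which the new chain leaves. Each subunit is built in the nucleolus from ribosomal RNA and imported ribosomal proteins, with the help of many assembly factors that do not stay in the finished particle. Vertebrate ribosomal protein mRNAs typically start with a C followed by a tract of C and T, the terminal oligopyrimidine (TOP) motif, through which growth signalling by mTOR and the RNA-binding protein LARP1 controls their translation. Such control acts on the use of an mRNA and is not read by an array of mRNA levels. The liver is rich in ribosomes because hepatocytes secrete most plasma proteins.

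Start-site sequences are shown because the TOP tract is the best known feature of these mRNAs, and it played no part in choosing the genes. Of the 20 genes, 16 matched the RefSeq promoter table, and the others were Rpl8, Rpl21, Rps4l and Rps14. Each sequence is 30 bases of GRCm38.p6, read on the strand of the gene, with 8 bases before the annotated start and 22 from it. Capitals mark a pyrimidine run or the letters CCGGAA, the core bound by ETS-family transcription factors. A run of at least 6 C or T, counted from a C within 5 bases of the start, was found in 6 genes. Bases before that C were not checked, so the run can be part of a longer tract. In Rpl14 further C and T precede it, and in Rps9 and Rps15a a T does. Of those above the floor of measurement, 4 are shown first.
Rpl15 (chr14:18270965-18270994, minus strand): aaagCCTTCTTCCTTTCCTCTggcggcagc
Rps6 (chr4:86857346-86857375, minus strand): agtcgggCCTCTTTTTCgtgacgcctccca
Rpl14 (chr9:120571509-120571538, plus strand): ccctCTCTCTTCTCgctgagcgccgccaac
Rps9 (chr7:3704033-3704062, plus strand): tgtCTCTCTTTgtctcgggcctgagttcgt

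In Rpl31, the gene with the largest difference towards DMSO, both marks stand in the same window, and in 3 further genes with a measured level CCGGAA stands there without such a run.
Rpl31 (chr1:39367843-39367872, plus strand): ctcgCCTCCCCgtgacCCGGAAgttgtacg
Rpl26 (chr11:68901558-68901587, plus strand): caacttacagaaCCGGAAgtcgcgtgtagt
Rps27l (chr9:66946078-66946107, plus strand): tccccgccgcctctatcCCGGAAgttgctg
Rpl7l1 (chr17:46782635-46782664, minus strand): tgcgcaagcgcagtagctgaagcaCCGGAA

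Rpl23 and Rps3, the 2 genes with the largest differences towards PCN, have neither mark in this window. The same holds for Rps15 (-0.06), Rpl22 (-0.02) and Rpl4 (0.06), whose sequences are not shown. The sequences of Rpl23 and Rps3 follow.
Rpl23 (chr11:97782418-97782447, minus strand): ccggtcacgtggctgagtgggcggggcctc
Rps3 (chr7:99483688-99483717, minus strand): gggtcgccgcgctgcgcggcgtcattgctc

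Counted in this way, the pyrimidine run was found in 6 of the 16 matched genes (37.5%), against 11.9% of the 27025 genes of the table. Mitochondrial ribosomal protein genes had it in 3 of 58 (5.17%) and ribosome assembly factors in 6 of 76 (7.89%). Translation factors and other genes listed for TOP mRNAs had it in 5 of 21 (23.8%). In the full 300-base windows, from 250 bases before to 50 after the start, CCGGAA on either strand was present in 9 of the 16 genes (56.2%), against 16.7% of all genes in the table. It was as frequent in mitochondrial ribosomal protein genes (33 of 58, 56.9%) and ribosome assembly factors (45 of 76, 59.2%). CCGCCC on either strand, the core of the SP1 site, was present in 8 of 16 against 38.2%, beside 46.6% of the mitochondrial ribosomal protein genes and 69.7% of the assembly factors. TATAAA was present in 1 (6.25%) against 15.7%, beside 6.90% and 7.89% of the same lists. Among the translation factors and TOP-listed genes the shares were 38.1% for CCGGAA, 61.9% for CCGCCC and 19% for TATAAA. The letters of CCGCCC can overlap those of CCGGAA or of a pyrimidine run, and a match describes the sequence only. The 5 measured genes with a TOP run differed by -0.15 to 0.14 on the log2 scale between the arrays, and the 8 measured genes with a matched window but no run by -0.06 to 0.22. These ranges overlap over most of their length. The median difference was 0.06 in the 8 measured genes with CCGGAA in the full window, Rps3 among them, and 0.06 in the 5 without it. For CCGCCC, it was 0.14 in the 7 measured genes with it (-0.15 to 0.22, 6 higher and 1 lower). In the 6 without CCGCCC it was 0.06 (-0.06 to 0.07, 4 higher and 2 lower). None of these splits was tested.

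Intensities are GCRMA values on a linear scale. A gene counted as measured when it reached an intensity of 32 (5 on the log2 scale) in either array, a floor set by choice and not by a detection call. By this rule 16 of the 20 genes were measured, 9 of the large and 7 of the small subunit, each of them above the floor in either array taken alone. The 9 large subunit genes had a median intensity of 504 with DMSO (82.3 to 23608) and 557 with PCN (74.4 to 24817). The 7 small subunit genes had a median of 6949 with DMSO (118 to 9811) and 7068 with PCN (134 to 9398). The range of the small subunit lies inside that of the large one in both arrays. The intensity of a probe set depends on its own probes as well as on the mRNA, so these medians do not say which subunit has more mRNA.

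The brightest members were Rpl26, at 23608 with DMSO and 24817 with PCN, and Rpl4, at 14382 and 15034. Both proteins are placed at the peptide exit tunnel of the large subunit. In the small subunit, Rps15, Rps14 and Rps9 had intensities of 9811, 8736 and 8033 with DMSO. At the other end, 4 genes stayed far below the floor in both arrays. Rpl39l, a paralogue of Rpl39 known from testis, had 3.04 and 3.05, and Rpl3l, the paralogue of Rpl3 found in heart and skeletal muscle, had 3.10 and 3.26. Rpl21 and Rps15a, which are general subunits of the ribosome, had 6.45 and 6.77, and 3.56 and 3.40. Rpsa, a small subunit protein whose symbol has no number and which is therefore no member, had 3.63 and 3.62. No difference is given for these genes. In RefSeq, 11 of the 20 genes have pseudogenes named after them, with 24 such symbols for Rpl31, 15 for Rpl21 and 8 for Rps15a. How far a probe set also reads such copies was not tested.

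**Figure D1:**
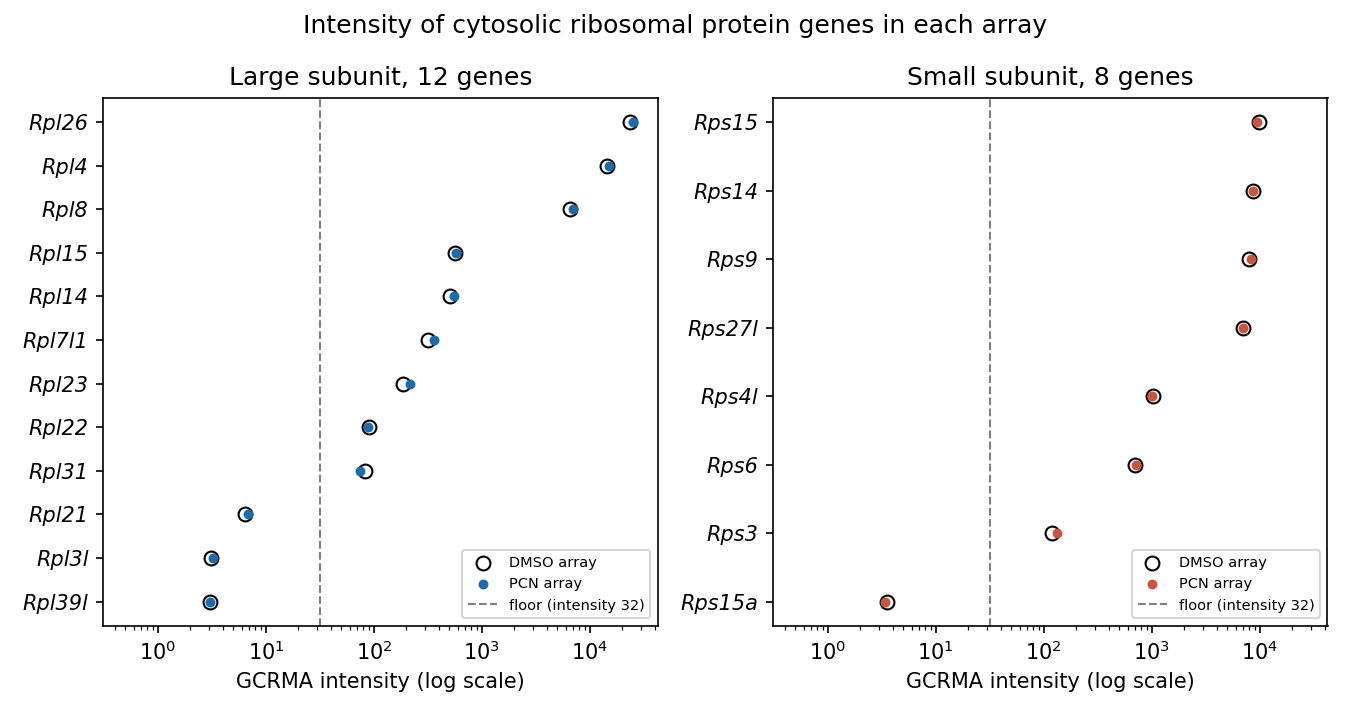
GCRMA intensity (horizontal, log scale) of the 12 large subunit genes (left) and the 8 small subunit genes (right) in the DMSO array (open circles) and the PCN array (filled circles), with the floor of 32 as a dashed line. The 2 circles of each gene nearly coincide, and 4 genes lie below the floor.

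Ribosomal protein mRNA differed little between the arrays. Of the 16 measured genes, 11 were higher with PCN and 5 lower, 68.8% higher against 57.6% of the 6449 measured genes, of which 42.4% were lower. The differences ran from -0.15 (Rpl31) to 0.22 (Rpl23) on the log2 scale, and none of the 16 reached 1.2-fold, a size that 18.0% of all measured genes reached. It follows that none reached 1.5-fold or 2-fold, which 1.94% and 0.326% of measured genes did. The median difference of the 16 was 0.06, beside 0.03 over all measured genes. It was 0.02 with quantile normalization (0.01 over all genes), 0.03 with centring and 0.04 with the loess trend removed. Their SD over genes was 0.09, beside 0.23 for all measured genes, and 11 of them lay between the quartiles of all genes, -0.09 and 0.14. Scaling shifts the small majority: 10 of 16 were higher after centring on the median of all genes, after quantile normalization or after removal of a loess trend, with 53.5% of all genes higher in the second of these settings and 50.6% in the third.

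Bacterial and phage control transcripts, which are added from outside, give the only measure of spread between these arrays. The 40 control probe sets that reached the floor differed by -0.33 to 0.16, with an SD of 0.10. Some of them read different parts of the same transcript, so they are not 40 independent controls. Of the 16 ribosomal protein genes, 13 lay within this range, and Rpl23, Rps3 and Rpl7l1 lay above it. The spread of these controls leaves out differences between cultures.

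**Figure D2:**
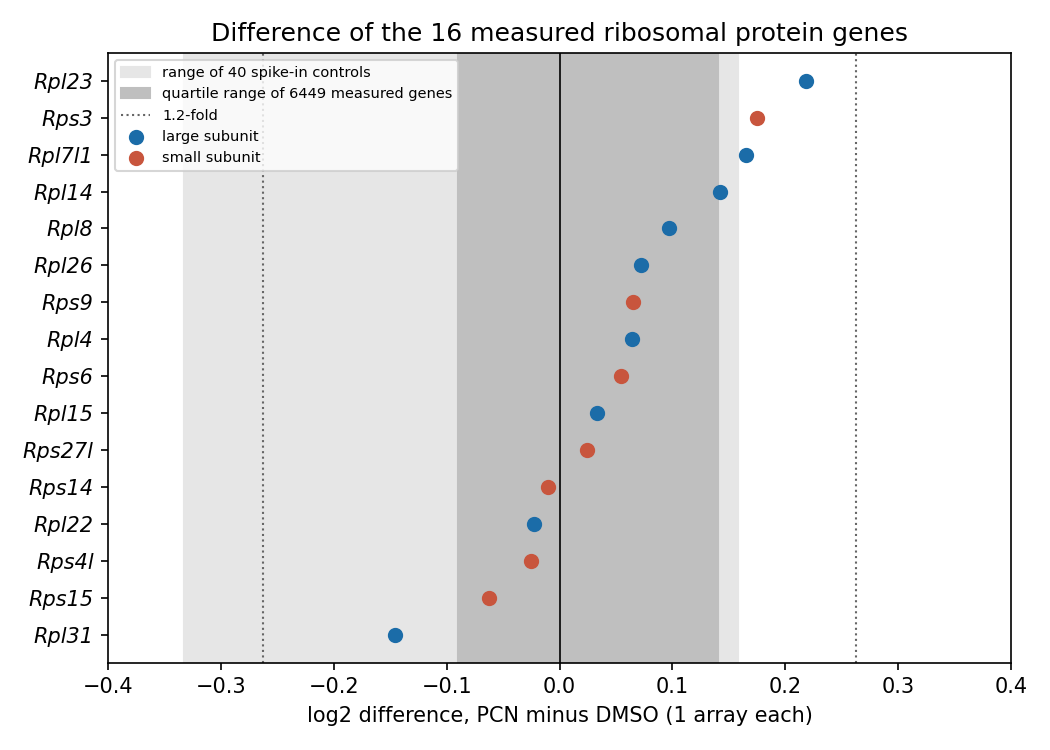
Log2 difference, PCN minus DMSO (horizontal), of the 16 measured ribosomal protein genes (rows), coloured by subunit. Shown are the range of the 40 spike-in control probe sets (light band), the quartile range of all 6449 measured genes (dark band) and the 1.2-fold size (dotted). Every point lies between the dotted lines, and Rpl23, Rps3 and Rpl7l1 lie to the right of the light band.

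In the large subunit, PCN was higher in 7 of the 9 measured genes and lower in 2, 77.8% higher against 57.6% of all measured genes. The median difference was 0.07, beside 0.03 over all measured genes. Rpl23, a protein of the face that joins the small subunit, which also binds the p53 regulator MDM2, had an intensity of 186 with DMSO and 216 with PCN. This 1.16-fold difference placed it above 86.5% of measured genes. Rpl7l1, a nucleolar paralogue of Rpl7, went from 319 to 358, a difference of 0.17. Rpl14, another large subunit protein, went from 504 to 557, a difference of 0.14. Rpl8, which lies close to the peptidyl transferase centre, had 6573 and 7030, a difference of 0.10.

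The remaining large subunit genes differed by less than 0.1, apart from Rpl31. Rpl26, which also binds the mRNA of p53, differed by 0.07, and Rpl4 by 0.06. Rpl15 had 558 with DMSO and 571 with PCN, a difference of 0.03 that turned to -0.004 with the loess trend removed. On the lower side, Rpl22, an RNA-binding protein that ribosomes can do without, had 90.4 and 89.0, a difference of -0.02. Rpl31, a protein near the tunnel exit, went from 82.3 to 74.4, a difference of -0.15 and the lowest of the 16. It is also the dimmest measured member and the one with most pseudogene symbols.

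In the small subunit, PCN was higher in 4 of the 7 measured genes and lower in 3, 57.1% higher against 57.6% of all measured genes. The median difference was 0.02, which turned to -0.008 with median centring. Rps3, which lies at the mRNA entry channel and also acts in DNA repair, had 118 with DMSO and 134 with PCN, a difference of 0.17 and the only one of the 7 beyond 0.1 in either direction. Rps9, a neighbour of Rps3 at the same channel, went from 8033 to 8403, a difference of 0.06. Rps6, the ribosomal substrate of the S6 kinases downstream of mTOR, had 696 and 723, a difference of 0.05.

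The other small subunit genes differed by less than 0.1. Rps14, which helps to form the platform of the subunit, had 8736 with DMSO and 8672 with PCN, a difference of -0.01 that turned to 0.02 with quantile normalization. Rps4l, a paralogue of Rps4x that RefSeq annotates as a transcribed pseudogene, had 1033 and 1015, a difference of -0.03. Rps15, a protein of the subunit head, went from 9811 to 9398, a difference of -0.06. Rps27l, a paralogue of Rps27 known as a p53 target, had 6949 and 7068, a difference of 0.02 that turned to -0.02 with quantile normalization.

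The medians of both subunits were 0.05 apart on the log2 scale, and their ranges overlapped. The SD of the spike-in controls, 0.10, is that of single probe sets and does not measure the spread of a gap between medians. With the paralogues Rpl7l1, Rps27l and Rps4l left out, the gap was 0.01, and with a floor of 10 on the log2 scale, which keeps bright members only, it was 0.08. It was 0.06 with the loess trend removed, with quantile normalization or without a floor. With 1 array per group this gap could not be tested.

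Bright and dim members differed in spread. The 8 members that reached 10 on the log2 scale (an intensity of 1024) in either array, 3 of the large and 5 of the small subunit, ran from -0.06 to 0.10. The 8 dimmer members, 6 large and 2 small, ran from -0.15 to 0.22. The same held over all measured genes, of which 8.57% of the 1120 bright ones and 20.0% of the 5329 dimmer ones were at least 1.2-fold apart, while the median difference was 0.03 in both. Most bright members are of the small subunit and most dim ones of the large. Among the 8 bright members alone, the median was 0.07 for the 3 large subunit genes and -0.01 for the 5 small subunit genes. At the top of the intensity range array signal can be compressed, which was not tested.

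**Figure D3:**
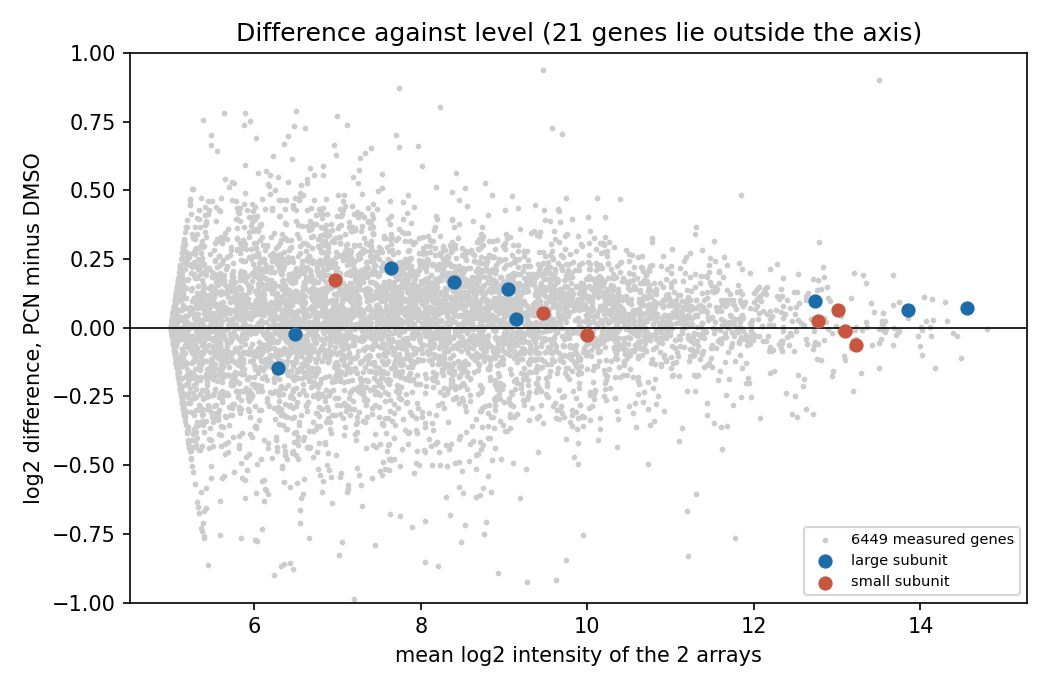
Log2 difference, PCN minus DMSO (vertical), against the mean log2 intensity of both arrays (horizontal) for the 6449 measured genes (grey) and the measured ribosomal protein genes, coloured by subunit. The 16 members lie close to 0 at all levels, and 21 grey points fall outside the axis.

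The genes that make and use ribosomes were set beside their protein subunits. Of 76 measured ribosome assembly factors, 73 were higher with PCN and 3 lower, 96.1% higher against 57.6% of all measured genes. The median difference was 0.20. Of the 76, 19 were at least 1.2-fold higher, a size reached by 9.06% of all measured genes. At least 1.2-fold lower was 1 of them, as 8.95% of all measured genes were. With centring, quantile normalization or loess, 69, 68 and 67 of the 76 were higher, against 50.0%, 53.5% and 50.6% of all genes. Assembly factors of the small subunit were higher in 34 of 36 measured (94.4%), and those of the large subunit in 29 of 30 (96.7%). The share over all measured genes was 57.6%, and the median difference was 0.20 in both groups. The largest differences of the list were those of Rrp8, an rRNA methyltransferase that also acts in nucleolar silencing, from 129 to 200.3 (0.64), Dkc1, the pseudouridine synthase of box H/ACA particles, from 194 to 272 (0.48), and Mybbp1a, a nucleolar regulator of rRNA transcription, from 569 to 776 (0.45). The RNA helicase gene Ddx21 went from 208 to 282 (0.44). Rrp36, a small subunit factor, was the largest difference in the other direction, from 315 to 238 (-0.40).

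Several assembly factors have a known partner among the members. Ltv1, which binds Rps3 on the precursor of the small subunit, differed by 0.26, beside 0.17 for Rps3. Eif6, which sits on Rpl23 and keeps the subunits apart until the large one is ready, differed by 0.004, at 5224 and 5240, beside 0.22 for Rpl23. Sbds and Efl1, which release Eif6, differed by 0.10 and 0.14. These genes were picked for their partners after the values were known.

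Polymerase genes were also mostly higher. Of 19 measured genes of RNA polymerases I and III, which transcribe the ribosomal RNAs, 18 were higher (94.7%, against 57.6% of all measured genes), with a median of 0.17, and 6 were at least 1.2-fold higher, as 9.06% of all measured genes were. Polr1b, the second largest subunit of polymerase I, went from 45.2 to 65.2 (0.53), Polr1e from 68.6 to 91.0 (0.41) and the initiation factor Rrn3 from 97.7 to 129 (0.40). Taf1d, also of the polymerase I initiation complex, differed by 0.38. Maf1, a repressor of polymerase III, was the lower one, at -0.10. Translation factors and other genes listed for TOP mRNAs were higher in 25 of 27 (92.6%, against 57.6%), with a median of 0.10, and no gene was at least 1.2-fold apart, against 18.0% of all measured genes. The 4 that differed most were Eif3b (0.26), Eif3d (0.26), Eif5b (0.25) and Eif3e (0.24), and all 10 measured subunits of the initiation factor eIF3 were higher.

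Genes that signal to ribosome supply were divided, with 9 higher and 8 lower of 17 and a median of 0.02, which turned to -0.01 with median centring. Eif4ebp2, a translational repressor that mTOR inactivates, was lower (171 to 114, -0.59), as was Rps6kb2, an S6 kinase gene (53.8 to 36.8, -0.55). Larp4, an mRNA-stabilising protein (0.41), and Myc, a transcription factor that drives ribosome synthesis (0.40), were higher. Genes listed for ribosome quality control or for the p53 pathway were higher in 10 of 11, against 57.6% of all measured genes, with a median of 0.12. Pelo, the ribosome rescue factor, was lower at -0.28. Abce1 (0.23) of the quality control genes was higher, as were Pml (0.25) and Mdm2 (0.16) of the p53 genes.

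The most similar gene groups are those of other large complexes. The mitochondrial ribosomal proteins, of which 60 were measured, numbered 45 higher (the share over all measured genes was 57.6%) and 15 lower, the median difference being 0.08 and the range from -0.09 to 0.35. Proteasome subunits numbered 20 higher (69.0%) and 9 lower of 29, the median being 0.07 and the range from -0.18 to 0.15. With loess, quantile normalization or centring these medians fell to between 0.046 and 0.048 for the mitochondrial ribosomal proteins and between 0.036 and 0.041 for the proteasome. The cytosolic ribosomal proteins, with a median of 0.06, lay near both. Only 16 cytosolic members stand behind their median, and the differences between lists were not tested.

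**Figure D4:**
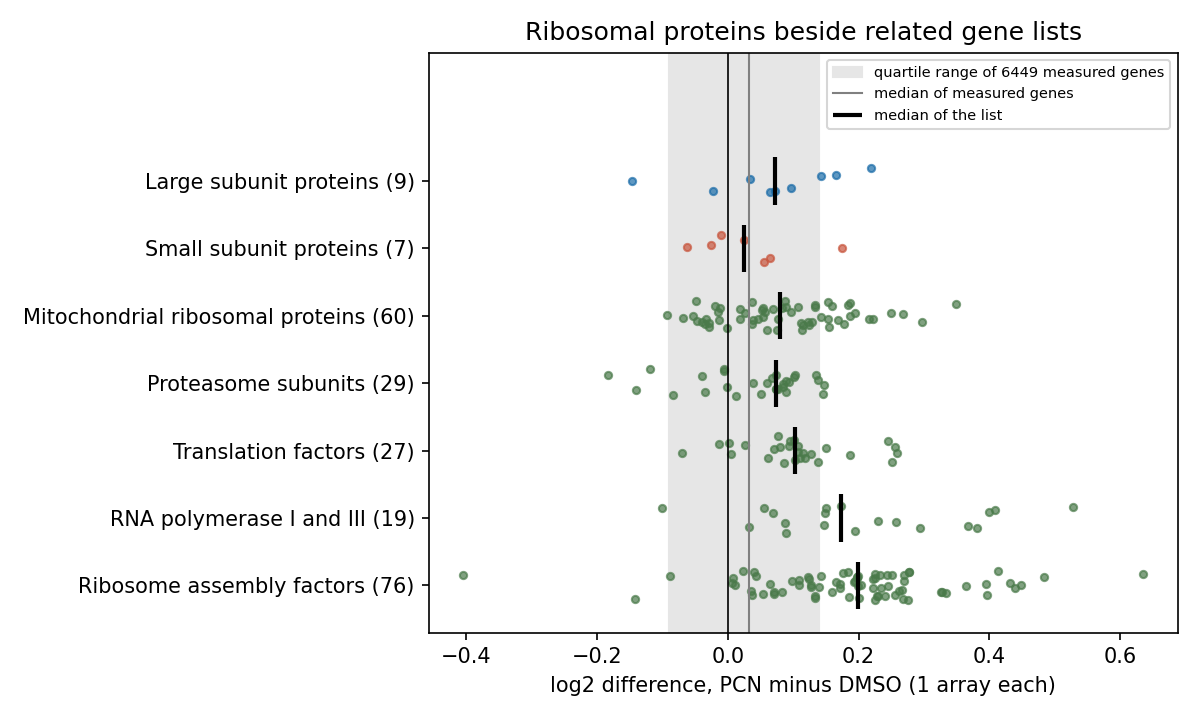
Log2 difference, PCN minus DMSO (horizontal), of each measured gene (points, with vertical scatter only for visibility) in 7 groups, with the number measured in brackets. Thick bars are the medians of the groups, the band is the quartile range of all 6449 measured genes, and the points of the ribosome assembly factors and polymerase genes lie mostly to the right of those of the ribosomal proteins.

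The median intensity over all probe sets, 14.4 for DMSO and 14.1 for PCN, was brought to a common level by GCRMA and does not compare the RNA of the groups. All 12 hepatocyte markers with a named probe set were measured, 3 higher and 9 lower, among them Alb (21685 and 21383), Ttr and Apoa1. Over all measured genes, 57.6% were higher. Asgr1 (-0.44) and Hnf4a (-0.21) differed most. Markers of other liver cells were mostly under the floor, with 6 of 15 measured for stellate cells and fibroblasts, 3 of 14 for Kupffer cells and leukocytes, 4 of 13 for endothelium and 3 of 7 for bile duct. Their summed intensities with DMSO and PCN were 3761 and 4989, 1838 and 1790, 236 and 255, and 857 and 762, the first mostly that of Vim, which hepatocytes in culture also express. Several of the markers above the floor differed between the arrays by more than any ribosomal protein gene. Among them were Timp1 (54.1 to 80.0, 0.56), Vim (0.48), Sparc (109 to 136, 0.32) and Tagln (-0.33) of the stellate cell list. In the bile duct list they were Krt19 (169 to 223, 0.40), Sox9 (-0.42) and Cd24a (-0.36). Of the 6 measured stellate cell markers, 3 were higher and 3 lower, the latter being Tagln, Acta2 (-0.19) and Dcn (351 to 313, -0.17). For Tagln and Acta2 the PCN value was under the floor and raised to it. The macrophage marker Cd68 (1690.2 to 1626) differed by -0.06. Col1a1, Lrat, Ptprc, Clec4f, Cdh5 and Epcam, named here after their values were seen, were under the floor in both arrays. In the control probe sets, the 5′ and 3′ parts of Actb and Gapdh each differed by less than 0.05. Those of 18S rRNA went from 49.5 to 31.1 (5′ part) and 69.6 to 55.2 (middle), and the 3′ part was under the floor in both arrays. The 4 control probe sets for pyruvate carboxylase, an enzyme of hepatocytes, were all lower, with differences from -0.27 to -0.69. Their part in the results on ribosomal protein genes was not tested, and in bulk RNA fewer cells of a type and less RNA per cell cannot be told apart.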

How the data were processed

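The authors deposited 1 linear intensity per probe set and array, made with GCRMA 2.2.0 per the submitters' processing notes. The method corrects background, brings arrays to a common distribution and summarises probes, so a change in all mRNA together cannot be seen. The probe set definition is not given in the sources used here. The table held 16395 probe sets, of which 15644 had 1 gene symbol in the platform annotation, none had several, 64 were controls and 687 were unnamed. No gene had more than 1 probe set.

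Values were put on the log2 scale and DMSO subtracted from PCN (Python 3.11.15; numpy 2.4.6; pandas 2.3.3). Genes under 5 on the log2 scale in both arrays were not measured, and values under it in 1 array were raised to it. With 1 array per group no test was made, and precision is limited by the number of arrays. Named genes were, per subunit, the 6 largest differences each way, the 3 brightest and 3 dimmest, a fixed list of members and paralogues, and the 4 largest differences of each related list. Genes named outside this rule, among them those with a partner and those of the eIF3 and subunit assembly groups, were chosen after their values were seen. The members and lists were chosen with earlier results of these data known. The script was tested on simulated arrays. The alternatives were other floors, other scalings (loess with statsmodels 0.14.6, fraction 0.3) and other member lists.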

Additional observations from a re-analysis of the deposited data

How the results depend on the processing

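All alternatives were planned. Of 234 summary values under them, 215 kept within the spike-in SD of 0.10 (counts within 1.5 times) and 19 moved, all of them where a changed floor or list changed which genes enter. That SD is of single probe sets and does not measure the spread of a median. By it, the ribosomal protein median kept when it fell from 0.06 to 0.02 with quantile normalization. The small subunit median kept when it changed sign. Some summary values could not move: leaving out paralogues does not alter the related lists, and centring and loess do not alter the levels. With a floor of 10 on the log2 scale, 5 of 8 ribosomal protein genes were higher, against 59.5% of all genes at that floor. In the other lists, the genes higher were 6 of 7 assembly factors, 1 of 1 polymerase gene with a median of 0.37 and 16 of 17 translation factors. They also were 5 of 6 signalling genes, 2 of 2 genes of the quality control and p53 list and 13 of 15 mitochondrial ribosomal proteins. Without a floor, 14 signalling genes were higher. The median log2 level of the large subunit was 13.81 (DMSO) and 13.88 (PCN) with a floor of 10, and 7.93 and 8.12 without a floor. That of the small subunit was 12.97 and 13.04 with a floor of 10 or without paralogues, and 11.39 and 11.39 without a floor. Of 133 single-gene values, none moved by more than the spike-in SD, but few of them could. With floors of 4 or 6, no floor or another member list, each single-gene value is the main one by construction. Median centring shifts every gene by the same 0.03. The spike-in SD is also wide for these genes, as 11 of the 16 differences lie within it of 0. A change of sign can therefore count as not moved. Changed in sign or at 0 were Rpl15, Rps14, Rps27l and Rpl4, the last at 0 with quantile normalization. The small subunit median was -0.01 with a floor of 10. Of the names to be added, only Rpsa had a named probe set, and it was under every floor, so that setting repeats the main values. With 1 array in a group, no replicate could be left out. For the same reason no paired analysis was possible. Low signal limits Rpl21, Rps15a, Rpl3l and Rpl39l.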
